A study of Homo sapiens with 5 samples.

Results

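Notch genes were examined by step of the pathway, in RNA captured with a biotin-labelled miR-25-3p duplex and in whole cell lysate. The genes were DLL3, JAG1, NOTCH2, POFUT1, NCSTN, APH1B, RBPJ, SNW1 and HES4, a list that leaves out ADAM17 and FKBP14. All probes annotated to them were taken from the table of normalized values, which gave 11 of its 14747 probes and 9 of its 9268 named genes. None of the 9 lacked a probe, and POFUT1 and APH1B had 2 each. The sample was LX-2, a cell line derived from human hepatic stellate cells, the liver cells that lay down matrix in fibrosis. All cells, those behind the controls included, were transfected with 50 pmol of the duplex and harvested after 24 h. The pull-down group (3 arrays, titled PD miR-25) held RNA caught on streptavidin beads, and the lysate group (2 arrays, titled Control) held RNA of total cell lysate. Per the study, a further control sample was excluded because its probes gave low detection signal. RNA was read on Illumina HT-12 bead arrays, and neither a control duplex nor bare beads were run among the samples analysed here.

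Notch is a receptor that is cut after it binds a ligand on a neighbouring cell. The receptor is fucosylated in the endoplasmic reticulum before it reaches the surface, and after ligand binding a sheddase and then γ-secretase cut it. The freed intracellular domain enters the nucleus, binds the DNA-binding protein RBPJ and switches on genes of the HES and HEY families. In the liver, Notch signaling is known for its part in bile duct development and in the activation of stellate cells. The study followed this pathway after qRT-PCR and reporter assays of ADAM17 and FKBP14, which it had picked from its pull-down.

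The mature miRNA is shown because its seed, bases 2 to 8, is the main part of a miRNA in pairing with a target mRNA. The mature sequence from RefSeq (GRCh38.p14, chr7:100093571-100093592, minus strand) has the seed in capitals, and miR-92a-3p, a family member with the same seed, stands below it.
hsa-miR-25-3p: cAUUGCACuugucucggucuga
hsa-miR-92a-3p: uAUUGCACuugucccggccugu
Of 2545 mature miRNA entries in the RefSeq table, 7 with 6 names carried this seed. An mRNA site that pairs with all of it would read GUGCAAU. Transcript and probe sequences of the Notch genes were not used here, so no site in them was looked for.

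Values are given on the deposited scale, which is log2 or close to log2. Array medians lay between 9.01 and 9.02 in the pull-down and between 9.01 and 9.03 in the lysate. A value is therefore relative to the other probes of its array and does not give the amount of mRNA captured. Pull-down replicate 1 correlated with the other pull-down arrays at 0.963 (both pairs) across all probes, while replicates 2 and 3 correlated with each other at 0.985. Of 14 stellate cell markers, 12 were among the probes analysed, with mean values between 8.02 and 14.31 in the pull-down and between 7.90 and 14.13 in the lysate, and limma called 0 of them, with 1 at an unadjusted p under 0.05 (DES and LUM were not among the probes). Of the markers of hepatocytes, immune cells, endothelial cells and cholangiocytes, 2 of 8, 2 of 5, 0 of 4 and 1 of 4 had a probe, and limma called 0, with 0 at an unadjusted p under 0.05.

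The comparison asked which Notch mRNAs were represented differently in the pull-down than in the lysate. The ligand gene DLL3 was higher in the pull-down. The fucosyltransferase gene POFUT1, by the brighter of its 2 probes, and the nuclear coregulator gene SNW1 were lower. The dimmer POFUT1 probe had the same direction without passing the test. The activating ligand JAG1, the receptor NOTCH2, the γ-secretase subunit nicastrin (NCSTN) and RBPJ had differences between -0.21 and 0.03 on the log2 scale, with none past the test. All differences are pull-down minus lysate. By the brightest probe of each gene, all 6 genes that the study picked as captured are lower in the pull-down in these values. This direction opposes the study's text, which calls its targets enriched in the pull-down. The caption of its volcano plot, however, gives the threshold for pull-down against lysate as a negative fold change. Directions follow the sample titles, and an exchange of the group labels was not tested. It would turn the sign of every difference and swap every count of higher and lower probes. It would also leave 3 lysate and 2 pull-down arrays, whereas the study profiled 3 replicates per group and excluded a control. At a limma adjusted p under 0.05, 1 of the 11 probes was higher and 2 were lower, against 14.7% of all probes called (7.64% higher, 7.09% lower). An unadjusted p under 0.05 was reached by 5 of the 11 and by 31.7% of all probes. The groups did not overlap for 2 probes that were higher and 5 that were lower, against 51.5% of all probes (29% and 22.4%). The median difference of the 11 probes was -0.15 and that of all probes 0.04. With 3 arrays against 2, an exact permutation test of a single value cannot give a p below 0.1, so probes were tested with limma.

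**Figure D1:**
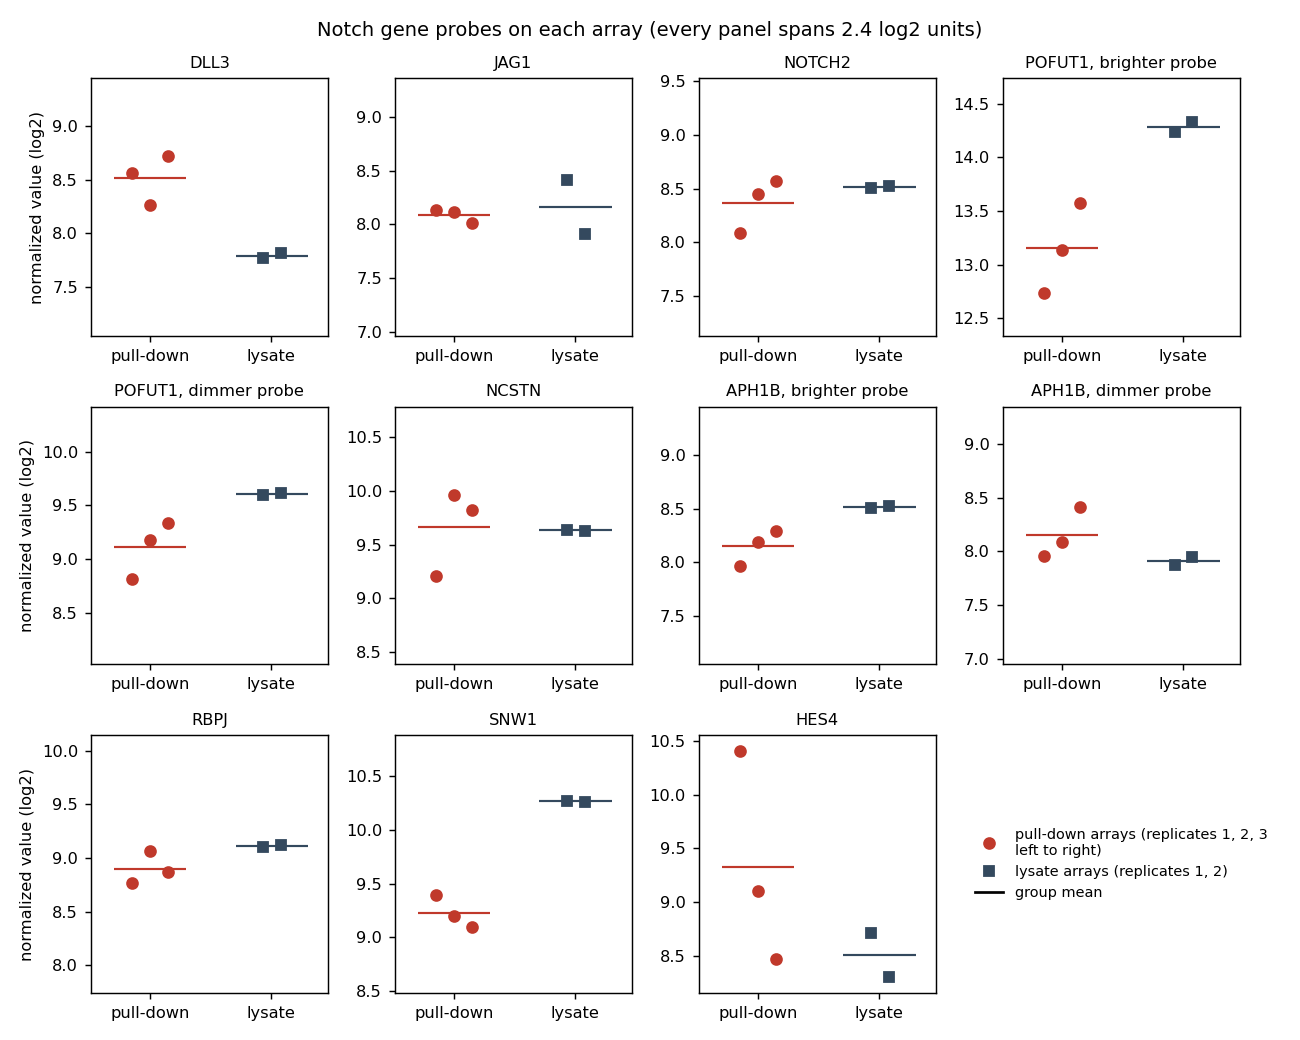
Normalized value (log2 scale, vertical axis) of each Notch gene probe on the 3 pull-down arrays (red circles) and the 2 lysate arrays (dark squares), with lines at the group means. Every panel has the same span. SNW1 lay between 9.09 and 9.40 in the pull-down and at 10.26 and 10.27 in the lysate, while the HES4 pull-down arrays ran between 8.47 and 10.41.

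Among the ligands, DLL3 measured 8.56, 8.26 and 8.72 in the pull-down (replicates 1 to 3, as in all lists that follow) and 7.77 and 7.81 in the lysate (replicates 1 and 2). All 3 pull-down arrays stood above both lysate arrays. DLL3 is a divergent ligand that does not activate receptors on neighbouring cells and acts on Notch within its own cell. The pull-down averaged 8.51 ± 0.23 (SD, n = 3) and the lysate 7.79 ± 0.03 (SD, n = 2), a 1.65-fold higher signal in the pull-down (log2 difference 0.72, SE 0.16, 95% interval 0.32 to 1.12, limma adjusted p = 0.0383). The probe was dim, at the 22.2nd percentile of mean value, and its lysate values lay close to the lowest value of those arrays, 7.57 on each. The lowest value of the pull-down arrays was higher, between 7.76 and 7.77. Of the 3687 dimmest probes (25% of the table), DLL3 among them, 0.976% were called higher, the median difference was 0.06, and 31.5% had all pull-down arrays above both lysate arrays. The part of this floor in the DLL3 difference was not tested.

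JAG1, the canonical activating ligand whose loss causes the bile duct disorder Alagille syndrome, measured 8.13, 8.11 and 8.02 in the pull-down and 8.41 and 7.91 in the lysate. The pull-down arrays lay between the lysate arrays, which differed from each other by 0.51. The log2 difference was -0.07 (95% interval -0.50 to 0.36, limma adjusted p = 0.806). Set against each other array by array, DLL3 moved 0.80 more than JAG1 on the log2 scale, without overlap between groups (exact permutation p = 0.1, the smallest possible, and adjusted p = 0.1 over the 4 pairs compared). JAG1 was above 0 at 0.18 without lysate replicate 1.

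The receptor gene NOTCH2 measured 8.09, 8.45 and 8.57 in the pull-down and 8.51 and 8.52 in the lysate. Pull-down replicate 1 was the low array, and replicate 3 lay above both lysate arrays. The log2 difference was -0.15 (95% interval -0.56 to 0.27, limma adjusted p = 0.599), and it was -0.01 without pull-down replicate 1. NOTCH2NLA is one of the partial copies of NOTCH2, so probes of either gene may read the other. Its probe measured 8.84, 8.47 and 8.84 in the pull-down and 9.62 and 10.42 in the lysate, a log2 difference of -1.31 (limma adjusted p = 0.0299).

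POFUT1 encodes the fucosyltransferase that adds O-linked fucose to the extracellular repeats of Notch. By its brighter probe it measured 12.74, 13.14 and 13.58 in the pull-down and 14.24 and 14.33 in the lysate. Every pull-down array was below both lysate arrays, by at least 0.66. The pull-down averaged 13.15 ± 0.42 (SD, n = 3) and the lysate 14.29 ± 0.07 (SD, n = 2), a 2.20-fold lower signal in the pull-down (log2 difference -1.14, SE 0.25, 95% interval -1.75 to -0.52, limma adjusted p = 0.0369). The lysate values stood near the top of the scale, where the highest value of any probe was 14.61 and 14.76 on the lysate arrays.

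The dimmer POFUT1 probe measured 8.82, 9.18 and 9.33 in the pull-down and 9.60 and 9.62 in the lysate. It had the same direction, again without overlap, and a smaller size (log2 difference -0.50, 95% interval -0.93 to -0.07, limma adjusted p = 0.116). Array by array, the brighter probe fell by 0.64 more on the log2 scale than the dimmer probe (exact permutation p = 0.1, adjusted p = 0.1). On both probes pull-down replicate 1 was the lowest array and replicate 3 the highest of the pull-down. Lysate means were 14.29 by the brighter probe and 9.61 by the dimmer, and what each probe reads was not tested. With both probes averaged, POFUT1 had a log2 difference of -0.82 and missed the threshold (limma adjusted p = 0.0566).

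**Figure D2:**
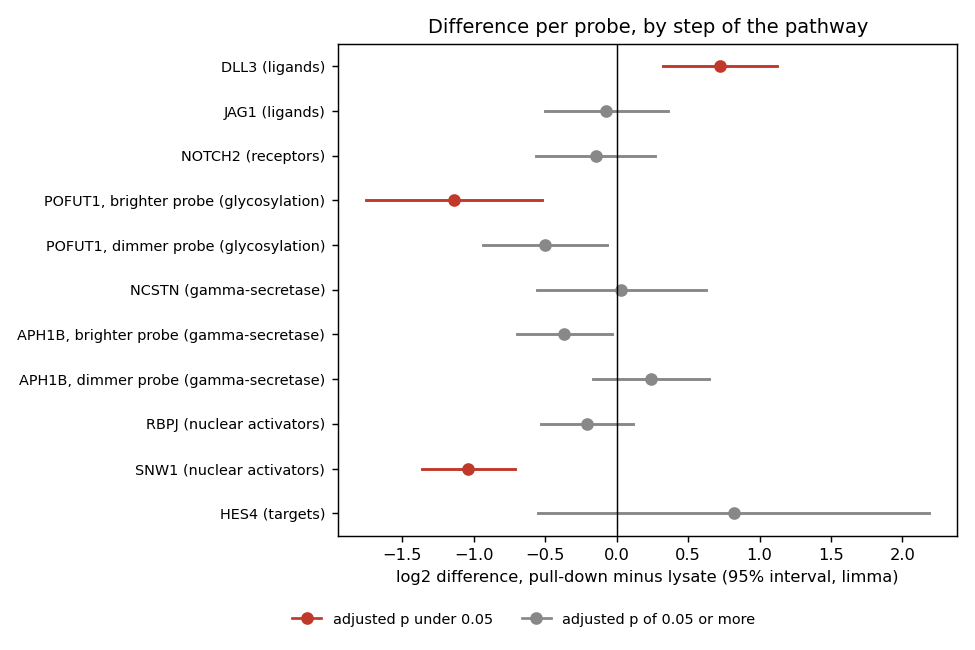
Log2 difference of pull-down minus lysate (points) with its 95% interval from limma (lines) for each Notch gene probe, ordered by step. Red marks an adjusted p under 0.05: DLL3 at 0.72, the brighter POFUT1 probe at -1.14 and SNW1 at -1.04.

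γ-Secretase is the membrane protease that releases the intracellular domain, and nicastrin, the NCSTN product, is its large glycosylated subunit. NCSTN measured 9.21, 9.96 and 9.83 in the pull-down and 9.64 and 9.63 in the lysate. One pull-down array lay below the lysate and the others above it. The log2 difference was 0.03 (95% interval -0.56 to 0.62, limma adjusted p = 0.94), and its sign changed with the arrays used: 0.26 without pull-down replicate 1, -0.12 without replicate 2 and -0.049 without replicate 3.

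APH1B, a scaffold subunit of the same protease, gave opposite directions by its 2 probes. The brighter probe, annotated to a cDNA clone record, measured 7.97, 8.19 and 8.29 in the pull-down and 8.51 and 8.53 in the lysate, lower on all 3 arrays (log2 difference -0.37, 95% interval -0.70 to -0.03, limma adjusted p = 0.127). The dimmer probe, annotated to the RefSeq mRNA, measured 7.96, 8.09 and 8.42 in the pull-down and 7.87 and 7.95 in the lysate, higher on all 3 arrays (log2 difference 0.24, 95% interval -0.16 to 0.65, limma adjusted p = 0.371). Neither passed the test. The 2 probes differed from each other by -0.61 in their log2 differences (exact permutation p = 0.1, adjusted p = 0.1), so APH1B has no settled direction here.

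In the nucleus, SNW1 had the lowest adjusted p of the 11 probes. SNW1, also known as SKIP, is a splicing factor that also binds the Notch intracellular domain and serves as a coregulator of RBPJ. It measured 9.40, 9.19 and 9.09 in the pull-down and 10.27 and 10.26 in the lysate. The arrays of each group lay close together and far from the other group. The pull-down averaged 9.23 ± 0.16 (SD, n = 3) and the lysate 10.27 ± 0.01 (SD, n = 2), a 2.05-fold lower signal in the pull-down (log2 difference -1.04, SE 0.13, 95% interval -1.36 to -0.71, limma adjusted p = 0.0128). SNW1 and the brighter POFUT1 probe were also the members past a 2-fold change (5.9% of all probes were called with at least that size, and 3.09% of all probes were called lower by it).

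RBPJ, the protein through which Notch reaches DNA, measured 8.77, 9.07 and 8.87 in the pull-down and 9.10 and 9.12 in the lysate. The groups did not overlap, but pull-down replicate 2 came within 0.038 of the lysate. The log2 difference was -0.21 (95% interval -0.53 to 0.11, limma adjusted p = 0.334). Set against RBPJ array by array, SNW1 fell by 0.83 more on the log2 scale (exact permutation p = 0.1, adjusted p = 0.1).

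HES4, a transcriptional repressor of the HES family that Notch switches on, measured 10.41, 9.10 and 8.47 in the pull-down and 8.71 and 8.30 in the lysate. Pull-down replicate 1 was far above the rest, and replicate 3 lay between the lysate arrays. The log2 difference was 0.82 with an SE of 0.55 (95% interval -0.55 to 2.19, limma adjusted p = 0.369). Its spread within groups was at the 99.5th percentile of all probes, and without pull-down replicate 1 the difference was 0.28. Of the 8 probes that did not pass, HES4 was the exception in having an interval that reached past a 2-fold change, and the intervals of the other 7 lay within 1 of 0 on the log2 scale.

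The calls rested on few arrays. DLL3 missed the threshold whichever array was left out (limma adjusted p between 0.0559 and 0.197). POFUT1 missed it when pull-down replicate 2 (0.0966) or either lysate array (0.169 without replicate 1, 0.16 without replicate 2) was omitted. SNW1 missed it under the same omissions (0.0549, 0.0941 and 0.0712). All 3 kept their sign, with log2 differences of 0.62 to 0.85 for DLL3, -1.35 to -0.93 for the brighter POFUT1 probe and -1.12 to -0.97 for SNW1. The dimmer POFUT1 probe ran from -0.61 to -0.35. Over the whole table, 2172 probes were called by limma with all arrays. Omitting lysate replicate 1 left 0 calls, with 2958 probes at an unadjusted p under 0.05, and omitting lysate replicate 2 left 91. The count was 2389 when pull-down replicate 1 was omitted, 387 when replicate 2 was and 912 when replicate 3 was.

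**Figure D3:**
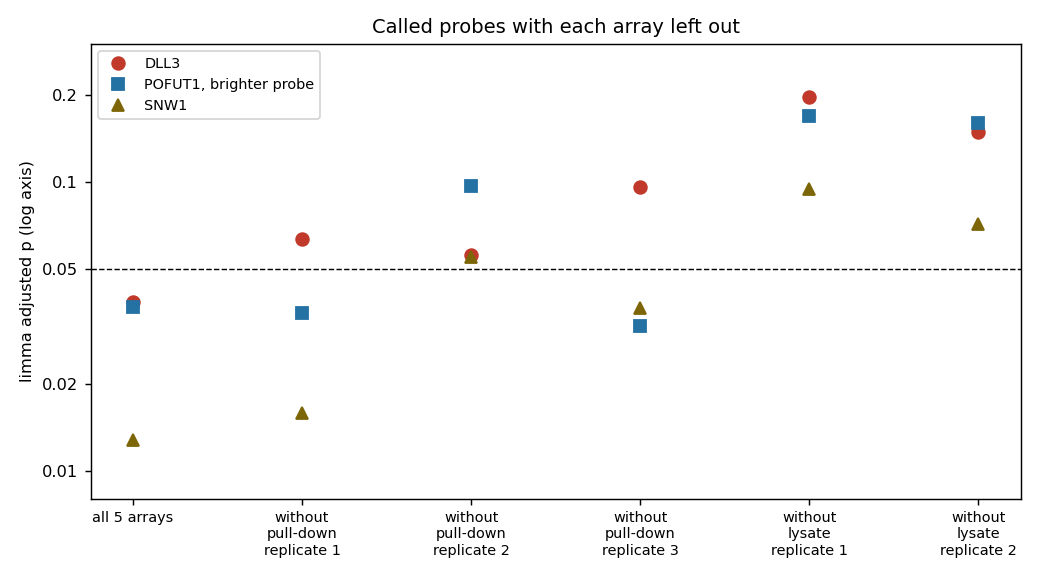
Limma adjusted p (log axis) of the 3 called Notch probes with all 5 arrays and with each array left out, where the dashed line marks the threshold of 0.05. With all arrays the values were 0.0383 for DLL3, 0.0369 for POFUT1 and 0.0128 for SNW1, and without lysate replicate 1 all 3 lay above the line.

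Pull-down replicates 1 and 3 were most often at the ends of the pull-down range among the Notch probes. Replicate 1 was the lowest of the 3 pull-down arrays for 7 of the 11 probes and the highest for 3, against 35.1% and 43.9% of all probes. Replicate 3 was the lowest for 3 and the highest for 6, against 32.2% and 27.9% of all probes. The probes of NOTCH2, POFUT1, NCSTN, APH1B and RBPJ were lowest on replicate 1, and those of JAG1, SNW1 and HES4 were highest on it. The lysate arrays lay within 0.0931 of each other except for JAG1 and HES4, where they differed by 0.51 and 0.41.

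Of 74 genes on a wider Notch list, 45 had a probe. By the brightest probe of each gene, 1 was higher (DLL3) and 2 were lower (POFUT1 and SNW1), against 13.8% of all genes called (7.1% higher, 6.72% lower). Limma called 0 of the 36 genes outside the 9 above, and 9 of them had an unadjusted p under 0.05, against 30.6% of all genes. The median log2 difference was -0.04 over the list and 0.04 over all genes.

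Other ligand genes were DNER at 0.40 (limma adjusted p = 0.0704) and DLK2 at 0.34 (limma adjusted p = 0.118). Both are non-canonical ligands of low signal that are named here after their values were seen. The groups did not overlap for either. Both were among the 3687 dimmest probes, of which 31.5% had all pull-down arrays above both lysate arrays. DNER measured 7.80 and 7.77 in the lysate, and the lowest value of the pull-down arrays lay between 7.76 and 7.77. The part of this floor in the DNER and DLK2 differences was not tested. NOTCH1 was at -0.05 (limma adjusted p = 0.854) and above 0 without lysate replicate 1 (0.09) or pull-down replicate 3 (0.03). POGLUT1, the O-glucosyltransferase of Notch, was the highest of 5 glycosylation genes at 0.32 (limma adjusted p = 0.383), with 0.26 by its dimmer probe, and was at 0.15 without pull-down replicate 2. The sheddase gene ADAM10 was at -0.31 (limma adjusted p = 0.259) and the convertase gene FURIN at -0.04, or 0.05 without pull-down replicate 1. The presenilin gene PSEN2 was at 0.27 by its brighter probe (limma adjusted p = 0.172) and at -0.01 by its dimmer probe. APH1A, the paralog of APH1B, was at 0.14 by its brighter probe (limma adjusted p = 0.654) and at 0.39 by its dimmer probe (limma adjusted p = 0.24), so which γ-secretase gene ranked first depended on the probe.

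Of 10 genes for ubiquitin ligases and trafficking, NUMB, an inhibitor of Notch, was highest at 0.59 (limma adjusted p = 0.0659), with 0.48 by its dimmer probe. FBXW7, which marks the intracellular domain for degradation, was at -0.39 (limma adjusted p = 0.0779). KAT2A, a histone acetyltransferase, was at 0.28 (limma adjusted p = 0.551), a value that rested on pull-down replicate 1 and was -0.0054 without it. Among 8 corepressor genes, HDAC2 was at 0.27 (limma adjusted p = 0.276). TLE4 was at -0.89 (limma adjusted p = 0.291), with -0.44 by its dimmer probe, and its lysate arrays measured 11.29 and 9.68. Without lysate replicate 1 the TLE4 differences were -0.09 and 0.10.

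HES6, which acts against HES1, measured 11.32, 9.83 and 9.98 in the pull-down and 9.03 and 9.05 in the lysate. All pull-down arrays were above the lysate, and replicate 1 was again far above the others, as for HES4. The log2 difference was 1.34 (SE 0.45, limma adjusted p = 0.105), and without pull-down replicate 1 it was 0.87 and passed the test (limma adjusted p = 0.0197). It did not pass without pull-down replicate 2 (1.61, limma adjusted p = 0.104) or replicate 3 (1.54, limma adjusted p = 0.134). The difference was 1.33 without lysate replicate 1 and 1.35 without lysate replicate 2.

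**Figure D4:**
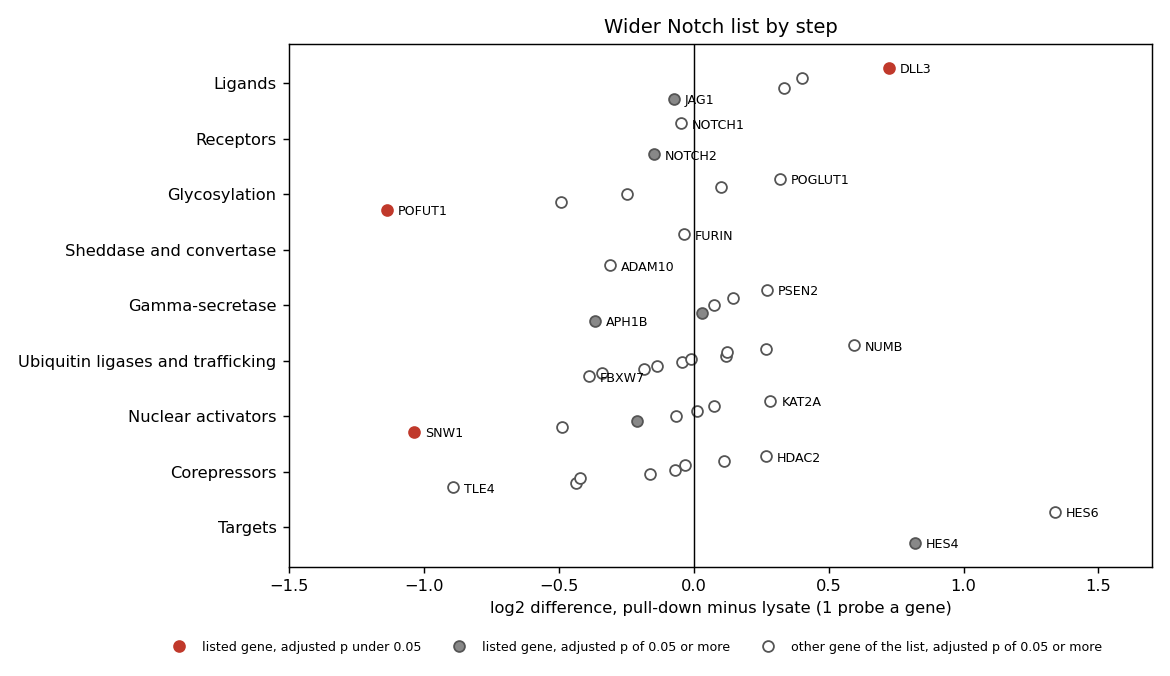
Log2 difference of pull-down minus lysate for the 45 measured genes of the wider Notch list, by step of the pathway and with 1 probe a gene, where red marks an adjusted p under 0.05 and grey the other genes described in full. The 3 called genes, DLL3, POFUT1 and SNW1, belong to different steps, and HES6 at 1.34 had the highest difference without passing the test.

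Genes with the most similar pattern over the 5 arrays were found by the Euclidean distance between values centred on each probe's mean. Closest to SNW1 were NCL, which encodes nucleolin (distance 0.0661), and GFPT1 (0.0814), with NCL at a log2 difference of -0.99. Closest to POFUT1 were CRCP (0.102) and the helicase gene MCM8 (0.126), at -1.05 each. Closest to DLL3 were FAM216A (0.106) and PDLIM7 (0.14), at 0.67 and 0.62. No probe came as near to HES4, whose closest were the histone genes H1-2 (0.432) and H2AC18 (0.467).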

How the data were processed

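Deposited normalized values, 1 for each probe on each array, were analysed. Per the study's methods, the authors exported HT-12 signals from GenomeStudio and normalized them with lumi to a log2 or log2-like scale. The transform and the tool versions are not stated in the sources used here, and a variance-stabilizing transform would understate differences of dim probes. A non-normalized table was left out because its 10 per-sample columns carry names that match no sample label, so background and detection were not examined. The labels repeat the bead step for the controls, which are called lysate after the series design text.

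Probes were named from GEO's platform annotation (1 symbol for 11970 probes) and the RefSeq table of GRCh38.p14 (names only, 0 symbols updated). The lmFit and eBayes functions of limma (version 3.58.1, under R 4.3.3) were run on all 14747 probes, with 3 residual degrees of freedom. P-values (two-sided) were adjusted by Benjamini-Hochberg across the whole table. In a test on simulated data, the fit called 52 of 100 probes given a log2 difference of 1. It called 83 of 100 given a difference of 2, with 4 false calls among the other probes. The simulation changed only these probes and drew independent noise, whereas 2172 of 14747 probes were called in the data. These counts therefore do not give the sensitivity or the false-call rate in the data. Exact two-sided permutation over arrays was used for 4 pairs of probes of the same step. These were DLL3 with JAG1, SNW1 with RBPJ, the 2 POFUT1 probes and the 2 APH1B probes. The pairs are a selection, and others, such as NCSTN with APH1B, were not compared. With these arrays the test cannot give a p below 0.1, so it could not call any pair different. The study describes independent biological replicates. The members, the wider list and the naming rule (all member probes, called genes of the wider list, the highest and lowest gene of each step, and the 2 nearest patterns of each member) were chosen with earlier results of these data known. Alternatives were median scaling, cyclic loess, leaving out the dimmest 25% of probes, a trended prior, a replicate block, averaged probes, a 2-fold minimum and leaving out each array.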

Additional observations from a re-analysis of the deposited data

How the results depend on the processing

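Median scaling and cyclic loess changed no sign and no call among the 11 Notch probes, and the median difference of all probes was 0.05 and -0.0016 under them. Leaving out the dimmest 25% of probes removed DLL3, JAG1 and the dimmer APH1B probe, which leaves 0 Notch probes and 0 genes of the wider list called higher (3 of 8 and 7 of 33 at an unadjusted p under 0.05 in limma, against 35.2% of all probes kept). The same count of 0 higher Notch probes followed from requiring a 2-fold change. With a trended prior, 3 genes of the wider list were higher, DLL3 with DNER and DLK2. Averaging a gene's probes left 1 gene of the wider list lower, SNW1.

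The replicate numbers of the titles were also used as a block, a fit to which pull-down replicate 3 adds nothing and which has fewer degrees of freedom. Under the replicate block the log2 differences were 0.62 for DLL3 (limma adjusted p = 0.167) and -1.35 for the brighter POFUT1 probe (limma adjusted p = 0.0601). They were -0.97 for SNW1 (limma adjusted p = 0.082) and -0.049, a changed sign, for NCSTN (limma adjusted p = 0.931). With this block 0 Notch probes and 0 genes of the wider list were called in either direction (5 of 11 and 6 of 45 at an unadjusted p under 0.05, against 23% of all probes), and 215 of all probes were called, 53 higher and 162 lower. Per the study, lysate was taken from the transfected cells just ahead of bead capture, so arrays of the groups may share cultures, but the labels do not say which. Deviations from the group means correlated at 0.04 and -0.43 for same-numbered arrays, and at 0.48 for pull-down replicate 3 with lysate replicate 2. With 2 lysate arrays, the deviations of lysate replicate 1 are those of replicate 2 with the sign turned. Each correlation therefore returns with the opposite sign for the other lysate array, and these values cannot decide which arrays pair. The numbers are not known to pair the arrays.

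With 1 array left out, log2 differences ranged from 0.62 to 0.85 for DLL3 and from -1.12 to -0.97 for SNW1. For POFUT1 they ranged from -1.35 to -0.93 by the brighter probe and from -0.61 to -0.35 by the dimmer probe. For JAG1 the range was -0.33 to 0.18 (above 0 without lysate replicate 1). For NCSTN it was -0.12 to 0.26 (below 0, at -0.12 and -0.049, without pull-down replicates 2 and 3). In these fits 0 Notch probes were called higher and 0 to 2 lower, 0 to 1 genes of the wider list higher and 0 to 2 lower, and 0 to 2389 of all probes, 0 to 1244 of them higher and 0 to 1145 lower. An unadjusted p under 0.05 was reached by 3 to 6 of the 11 Notch probes in each of these fits, against 20.1% to 34.6% of all probes. Without a lysate array the group had 1 array, assumed to vary like the pull-down. The number of arrays limits the precision, and signal over background was not examined.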
